A study of Mus musculus with 24 samples.

Results

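The genes described here are those that make, consume and control the polyamines: 8 of the 22009 named genes in the expression table. They were chosen by name and not by a rule on their values, though earlier results of these data were known. Odc1 (ornithine decarboxylase), Amd1 (S-adenosylmethionine decarboxylase), Srm (spermidine synthase) and Sms (spermine synthase) are the enzymes of synthesis. Sat1 (spermidine/spermine acetyltransferase) opens the route of breakdown and export, Oaz1 and Oaz2 encode antizymes, and Azin1 encodes the antizyme inhibitor. All 8 were expressed above the filter on low values used in every comparison.

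RNA sequencing was carried out on CD4+ T cells from the spleens of adult wildtype C57BL/6 mice, purified by negative magnetic selection and pooled over animals, and gave 24 libraries. Resting (unstimulated) cells gave 2 libraries. Stimulated cells gave 18 libraries, 1 for each of 3 culture conditions at 4, 8, 12, 16, 20 and 24 h. All cultures received anti-CD3e and anti-CD28, alone in the Th0 condition, with anti-IL-4 and recombinant IL-12 in the Th1 condition, and with recombinant IL-4 plus antibodies to IFN-γ and IL-12 in the Th2 condition. Actinomycin D, a blocker of transcription, was added to cells after 16 h of stimulation, and 4 more libraries were made 0, 1, 2 and 4 h later from cells whose skewing condition is not given in their labels. The design asks which members change when T cells are activated, and which differ between neutral and skewing cultures. Each culture was sequenced once, so no spread below is one between replicate cultures. In the time comparisons the spread is that between the 2 resting libraries and between the Th0, Th1 and Th2 cultures of each time point. It thus includes the differences between conditions. In the condition comparisons it is what is left after time and condition, and so includes condition differences that change with time. Either spread may in part be technical. Resting libraries and cultures carry different numbers in their titles, whose meaning is not given, so a difference in preparation cannot be told apart from activation itself.

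Polyamines are small positively charged molecules that bind RNA and DNA and are needed for growth. Odc1 makes putrescine from ornithine, Amd1 makes the aminopropyl donor from S-adenosylmethionine, and Srm and Sms add aminopropyl groups in turn to make spermidine and spermine. Antizyme binds Odc1 and sends it to the proteasome, antizyme inhibitor resembles Odc1 and takes antizyme away from it, and both decarboxylases are short-lived proteins that are controlled at the level of translation and stability as well as of mRNA. Resting T cells hold little polyamine, and activated lymphocytes make and take up more before they divide. The values here are mRNA levels only.

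Values are RPKM, reads scaled to transcript length and to the mapped reads of the library, which allow levels to be compared between genes. Mapped reads per library, recovered from the steps between low RPKM values, ranged from 17512385 to 33017133 in the time course and from 18052931 to 25735543 after actinomycin D. The 2 resting libraries were not duplicates, as their reads differed by more than sampling noise (chi-square per gene 4.86 over 754 genes). The T cell gene Cd4 stood at 328 and 326 RPKM at rest. Transcripts of other cells were present at rest and went down in culture: the summed level of 9 red cell genes was 38979 to 42529 RPKM at rest, 29433 to 47168 at 4 h and 142 to 213 at 24 h, and that of 8 macrophage genes was 472 to 495 at rest and 7.72 to 12.2 at 24 h. All 9 and all 8 of these genes fell by 24 h and none was at 0. The sums went from 64.8 to 74.2 at rest to 8.64 to 17.5 at 24 h for 5 B cell genes, from 111 to 113 to 29.2 to 62.1 for 4 NK cell genes, from 12.4 to 12.7 to 7.44 to 11.9 for 2 CD8 genes and from 2009 to 2032 to 1223 to 1473 for 7 T cell genes. Not every gene of these lists went with its sum. Below both resting libraries in all 24 h cultures were 5 of 5 B cell, 3 of 4 NK cell, 0 of 2 CD8 and 6 of 7 T cell genes. The T cell gene Cd5 was higher, from 137 and 142 RPKM at rest to 254, 306 and 173 in Th0, Th1 and Th2 at 24 h. In such bulk samples fewer cells of a type and less RNA per cell cannot be told apart. Taking out the haemoglobin genes and rescaling shifted the median change of all genes at 24 h against resting from −0.04 to −0.15 on the log2 scale, while scaling by the median of ratios shifted it to 0.10 and quantile normalization to 0.13. The part of these other cells in the changes against resting below was not tested, beyond the values given for this rescaling.

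At rest the order of the 8 levels was Oaz1 with a mean of 498 RPKM, Sat1 with 151, Odc1 with 135, Azin1 with 77.5, Sms with 36.8, Srm with 25.8, Amd1 with 24.7 and Oaz2 with 24.3. Srm, Amd1 and Oaz2 could not be ordered, since their resting libraries overlapped. Oaz1 was higher than 99.3% of all named genes. At 24 h, over the 3 cultures, the order was Oaz1 with 486 RPKM, Odc1 with 250.4, Srm with 222, Sat1 with 133, Sms with 99.9, Amd1 with 76.7, Azin1 with 63.9 and Oaz2 with 15.5. There Odc1 overlapped Srm, Sms overlapped Amd1 and Amd1 overlapped Azin1. Srm thus stood above 83.0% of named genes at rest and above 98.3% at 24 h, while Oaz2 went from above 82.0% to above 75.9%.

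**Figure D1:**
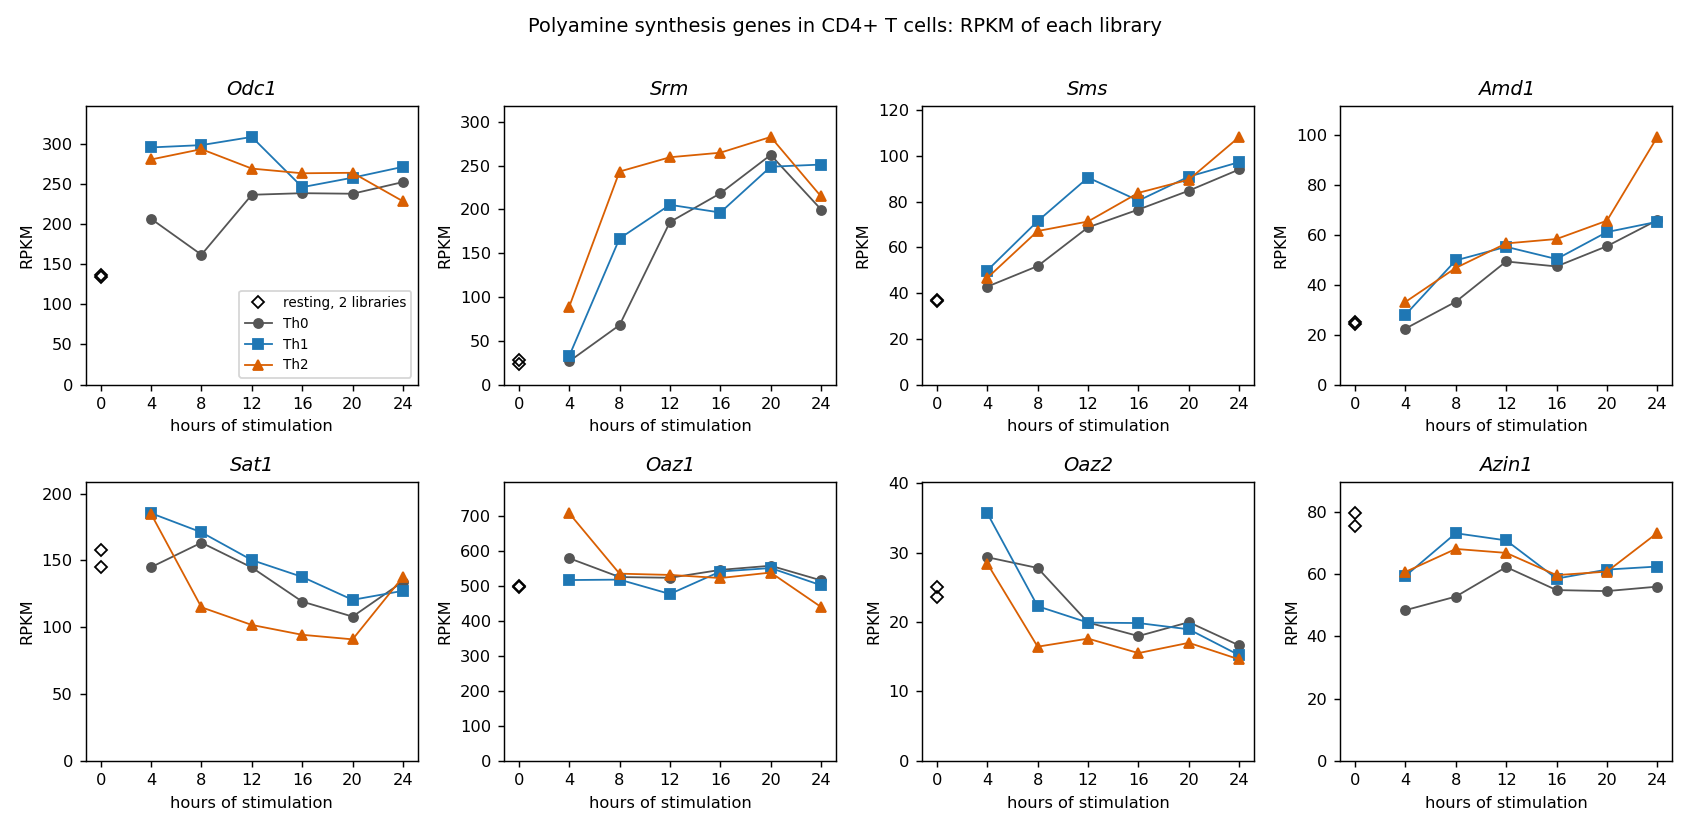
RPKM (vertical axes, linear from 0) of each of the 8 genes in each time-course library against hours of stimulation, with the 2 resting libraries as open diamonds at 0 h and 1 library per point in Th0 (circles), Th1 (squares) and Th2 (triangles) cultures. Srm climbs from 23.9 and 27.7 RPKM at rest to between 199.9 and 251 at 24 h, Odc1 is above both resting libraries in every culture, and Azin1 is below both in every culture.

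Srm, the enzyme that makes spermidine, was much higher in the cultures from 8 h on than at rest. Its gene lies at chr4:148591503-148594993 on the plus strand (GRCm38, GENCODE M21). Srm was expressed at 23.9 and 27.7 RPKM in the resting libraries. In the Th0 cultures it was 26.5, 67.9, 186, 218, 262 and 199.9 RPKM at 4, 8, 12, 16, 20 and 24 h. In the Th1 cultures it was 32.4, 167, 205, 196, 249 and 251 RPKM at the same times. In the Th2 cultures it was 88.7, 243, 259.6, 265, 283 and 215 RPKM. At 4 h the Th0 culture was still within the resting range, and from 8 h on all cultures were above it. On the log2 scale of RPKM + 0.5 the difference from resting was 0.71 (SE 0.44) at 4 h, 2.42 at 8 h, 3.04 at 12 h, 3.10 at 16 h, 3.33 at 20 h and 3.08 (SE 0.44) at 24 h. limma, a linear model fitted to all genes together with Benjamini-Hochberg adjustment, gave adjusted p = 0.238 at 4 h, 0.000299 at 8 h and 1.69e-05 at 24 h, when the fold was 8.44. The largest fold was 10.1, at 20 h (adjusted p = 8.77e-06).

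Amd1 and Sms rose more slowly and were still climbing at 24 h. Amd1, at chr10:40287458-40302186 on the minus strand, was at 25.1 and 24.4 RPKM at rest. It was 22.4, 33.1, 49.2, 47.3, 55.4 and 65.8 RPKM over the 6 time points of the Th0 condition. The Th1 cultures had 27.9, 49.7, 55.1, 50.2, 61.0 and 65.1 RPKM and the Th2 cultures 33.0, 46.7, 56.5, 58.2, 65.6 and 99.1 RPKM. Of the 18 cultures 17 were above both resting libraries and the Th0 culture at 4 h was below both. The call at 8 h (0.77, limma adjusted p = 0.00403) was lost without the Th1 cultures (0.66, adjusted p = 0.0663). Amd1 was 3.002-fold higher at 24 h than at rest (log2 difference 1.59, SE 0.20, limma adjusted p = 4.34e-06). Reads of Amd1 could be counted whole, and in the 24 h Th2 culture it was 1.52 times (95% interval 1.47 to 1.57) the Th1 level, an interval that covers counting error only.

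Sms, at chrX:157443855-157492287 on the minus strand, was at 36.5 and 37.1 RPKM at rest. At 4 h it was 42.8, 49.9 and 46.7 RPKM in the Th0, Th1 and Th2 cultures, and at 24 h it was 94.1, 97.3 and 108 RPKM. All 18 cultures were above both resting libraries, as was so for 12.4% of the genes tested. The increase at 24 h was 2.69-fold (log2 difference 1.43, SE 0.14, limma adjusted p = 2.33e-07). At 4 h the log2 difference of 0.33 did not pass (adjusted p = 0.0759), but it did with condition as a covariate (adjusted p = 0.0212), without the Th0 cultures (adjusted p = 0.0376) and under median-of-ratios scaling (adjusted p = 0.0464).

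Odc1 followed another course, with a rise at the first time point and a plateau after it. Odc1, at chr12:17544794-17551505 on the plus strand, was already the third most abundant of the 8 at rest, with 134 and 137 RPKM. At 4 h it was 206, 295 and 280.2 RPKM in the Th0, Th1 and Th2 cultures, at 12 h 236, 308 and 269, and at 24 h 252, 271 and 228. All 18 cultures were above both resting libraries, the lowest being Th0 at 8 h with 162 RPKM and the highest Th1 at 12 h. The log2 difference from resting was 0.92 (SE 0.21, limma adjusted p = 0.00296) at 4 h, 0.83 at 8 h, 0.99 at 12 h, 0.87 at 16 h, 0.90 at 20 h and 0.88 (SE 0.21, adjusted p = 0.0016) at 24 h. Each of these passed the test and none reached 2-fold, the nearest being 1.99-fold at 12 h. Other settings took Odc1 past 2-fold at 4 h (median of ratios, and without the Th0 cultures, 1.08), at 12 h (median of ratios, 1.11, upper quartile, and without resting replicate 2 or the Th0 cultures) and at 24 h (median of ratios, 1.02). At 8 h the change was past 2-fold, at 1.12, only without the Th0 cultures, and it stayed below 2-fold in 15 of 16 other settings. At 8 h the call was lost without the Th1 cultures (0.68, adjusted p = 0.0551) and when only the resting and 8 h libraries were fitted (adjusted p = 0.0715). From 4 h to 24 h Odc1 moved by −0.04 (SE 0.19, adjusted p = 0.851), and that small difference turned to 0.02 under median-of-ratios scaling and to 0.08 without the Th2 cultures.

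Oaz1, Oaz2, Sat1 and Azin1, which restrain, consume or modulate, did not pass the test as higher than at rest at any time point in the fit with time alone. With condition as a covariate Oaz2 passed as higher at 4 h (adjusted p = 0.0405), as it did without the Th2 cultures (adjusted p = 0.0285), and Oaz1 at 4 h passed under median-of-ratios (adjusted p = 0.0410) and upper-quartile scaling (adjusted p = 0.0318). Oaz1, at chr10:80826656-80829290 on the plus strand, had 497 and 499 RPKM at rest and 579.5, 517 and 708 RPKM in the Th0, Th1 and Th2 cultures at 4 h. At 24 h these cultures had 516, 502 and 439.8 RPKM, on both sides of the resting level. The log2 difference was 0.26 (SE 0.11, limma adjusted p = 0.0926) at 4 h and −0.04 (SE 0.11, adjusted p = 0.775) at 24 h, the latter turning to 0.10 under median-of-ratios scaling and 0.02 under upper-quartile scaling. Between 4 h and 24 h Oaz1 fell by 0.30 (SE 0.10, adjusted p = 0.0159). That fall rested on the Th2 cultures, without which it was −0.10 (limma adjusted p = 0.301). It also missed the threshold without the Th0 cultures (−0.36, adjusted p = 0.0533) and under median-of-ratios scaling (−0.23, adjusted p = 0.0650).

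Oaz2, the second antizyme, at chr9:65668001-65690300 on the plus strand, fell. It was at 25.02 and 23.6 RPKM at rest, and at 4 h at 29.4, 35.7 and 28.5 RPKM in the Th0, Th1 and Th2 cultures, all above rest. At 24 h it was 16.6, 15.2 and 14.6 RPKM, all below. The log2 difference from resting was 0.35 (SE 0.17, limma adjusted p = 0.132) at 4 h and −0.63 (SE 0.17, adjusted p = 0.00369) at 24 h. From 4 h to 24 h Oaz2 fell by 0.98 (SE 0.15, adjusted p = 3.64e-05), a drop to 0.507 of the 4 h level. The 2 antizymes thus moved apart: the ratio of Oaz1 to Oaz2 in RPKM was 19.9 and 21.2 at rest and between 30.1 and 33.0 at 24 h.

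Sat1, at chrX:155213132-155216449 on the minus strand, was at 158 and 145 RPKM at rest and at 145, 185 and 185 RPKM in the Th0, Th1 and Th2 cultures at 4 h. It was lowest at 20 h, with 108, 121 and 90.9 RPKM, and stood at 134, 127 and 138 RPKM at 24 h. Of the 18 cultures 4 were above both resting libraries and 13 below. Only the difference at 20 h passed (log2 −0.51, SE 0.20, limma adjusted p = 0.0344). That call was lost without resting replicate 1 (−0.46) and without resting replicate 2 (−0.57). It was also lost without the Th0 cultures (−0.53, adjusted p = 0.0838) and under median-of-ratios scaling (−0.42, adjusted p = 0.0937).

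Azin1, at chr15:38487427-38519266 on the minus strand, was at 79.6 and 75.3 RPKM at rest and lower in all 18 cultures, as 19.4% of the genes tested were. These cultures ranged from 48.4 RPKM in Th0 at 4 h to 73.2 in Th2 at 24 h, with a median of 60.7. At 4 h it was 48.4, 59.4 and 60.7 RPKM in the Th0, Th1 and Th2 cultures, a log2 difference of −0.47 (SE 0.14, limma adjusted p = 0.0192). At 24 h it was 56.0, 62.4 and 73.2 RPKM, a difference of −0.28 (adjusted p = 0.0898). Azin1 fell at 4, 16 and 20 h by the test at any size, and each of these calls was lost when either resting library or the Th1 cultures were left out, with adjusted p of at most 0.133 at 4 h, 0.105 at 16 h and 0.126 at 20 h. Median-of-ratios scaling also lost each of these calls (limma adjusted p = 0.0728 at 4 h, 0.0701 at 16 h and 0.112 at 20 h). Upper-quartile scaling lost the call at 4 h (adjusted p = 0.0508). At 24 h Azin1 passed without the Th2 cultures (−0.39, adjusted p = 0.0448) and without the haemoglobin genes (−0.40, adjusted p = 0.0146).

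**Figure D2:**
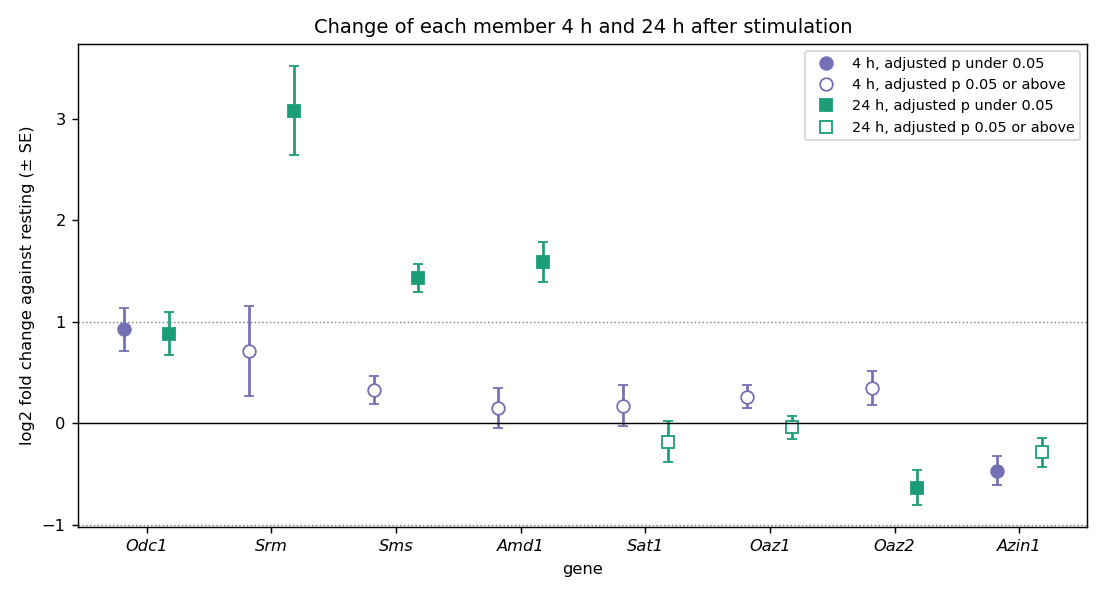
log2 fold change against the 2 resting libraries (vertical axis, with SE from the limma fit as bars) of the 8 genes, from the 3 cultures at 4 h (circles) and the 3 at 24 h (squares), filled where the adjusted p was under 0.05, with dotted lines at 2-fold. At 4 h Odc1 (0.92) and Azin1 (−0.47) are filled, and at 24 h Srm (3.08), Amd1 (1.59), Sms (1.43), Odc1 (0.88) and Oaz2 (−0.63).

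Counted together, no member at 4 h passed the test with at least a 2-fold change, against 10.6% of all genes tested, and 2 of 8 passed at any size, against 31.7% of all genes. At 4 h 4 members had an unadjusted limma p under 0.05, as had 4569 of all 10897 genes tested. At 8 h 1 member passed with 2-fold (18.9% of all genes) and 4 at any size (50.4%). At 12 h these counts were 3 (27.1%) and 4 (61.4%), at 16 h 3 (25.7%) and 6 (59.7%), at 20 h 3 (29.0%) and 6 (63.7%), and at 24 h 3 (30.1%) and 5 (65.2%). Between 24 h and 4 h 3 members passed with 2-fold (26.2% of all genes) and 5 at any size (66.5%). The shares of members were thus near the shares of all genes at most time points, as a large part of all genes differed from resting. The members past 2-fold were Srm, Amd1 and Sms, each higher than at rest, and the median log2 change of the 8 at 24 h was 0.42, beside −0.04 for all genes. Without the haemoglobin genes the changes at 24 h were 2.96 for Srm, 1.47 for Amd1, 1.31 for Sms, 0.76 for Odc1 and −0.75 for Oaz2.

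The sequences before the start sites of Odc1, Sms and Amd1 are shown because these genes, at different times, were all higher in culture than at rest and because Myc, also higher at 24 h, is known to bind the E-box CACGTG. RefSeq windows (GRCm38.p6) matched 6 of the 8 members, not Srm or Azin1. Each sequence runs 5′ to 3′ on the strand of the gene. Capitals mark CACGTG and the GC box GGGCGG, searched on both strands, so that GGGCGG also appears as CCGCCC. The Odc1 sequence, chr12:17544623-17544793, is the part of the RefSeq window that lies before the GENCODE start. Those of Sms, chrX:157492288-157492537, and Amd1, chr10:40302189-40302438, are the 250 bases before the RefSeq start.
Odc1: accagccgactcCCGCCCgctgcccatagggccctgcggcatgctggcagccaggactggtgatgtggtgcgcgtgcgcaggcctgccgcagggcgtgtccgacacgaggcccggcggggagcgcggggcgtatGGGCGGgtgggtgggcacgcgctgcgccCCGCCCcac
Sms: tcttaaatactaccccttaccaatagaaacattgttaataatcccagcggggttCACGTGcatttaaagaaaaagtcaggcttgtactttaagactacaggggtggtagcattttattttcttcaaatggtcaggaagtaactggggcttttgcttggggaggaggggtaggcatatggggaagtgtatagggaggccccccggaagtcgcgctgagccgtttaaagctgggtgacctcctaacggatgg
Amd1: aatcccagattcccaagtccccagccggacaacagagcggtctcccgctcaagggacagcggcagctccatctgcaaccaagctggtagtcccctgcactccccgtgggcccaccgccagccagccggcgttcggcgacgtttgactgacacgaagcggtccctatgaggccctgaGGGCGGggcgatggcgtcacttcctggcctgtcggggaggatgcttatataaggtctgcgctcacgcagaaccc

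Over the 250 bases before the start, CACGTG was found in Sms at the start shown and in no other of the 6 members, and 6.02% of 32851 RefSeq windows held it. Bases after the start or further upstream were not searched, so a gene without a match here may still hold the motif there. GGGCGG was found in Odc1 (4 times, of which 3 lie in the part shown), Amd1 (once), Sat1, Oaz2 and a second start of Sms, and in 32.7% of all windows. The exact letters TATAAA, a form of the TATA box, were found in none of the 6 and in 12.4% of all windows. Other forms of that box were not searched, so the stretch tatataag near the end of the Amd1 sequence was not counted. Of the 4 occurrences of GGGCGG at the second Sms start 3 overlap each other, and no occurrence of different motifs overlapped in the sequences shown. A match of letters is a description and not a binding site.

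Antizyme mRNA was less abundant relative to Odc1 mRNA in every culture than at rest. The ratio of Oaz1 to Odc1 in RPKM was 3.71 and 3.65 in the resting libraries. In the 18 cultures it was between 1.55 (Th1 at 12 h) and 3.25 (Th0 at 8 h), all below rest, with a median of 2.04, and at 24 h between 1.85 and 2.05. The ratio of Odc1 to its inactive relative Azin1 was 1.69 and 1.82 at rest and between 3.06 and 4.97 in the cultures. Srm and Sms, which act in turn, also changed places: the ratio of Srm to Sms was 0.655 and 0.747 at rest, between 1.98 and 2.58 at 24 h and highest in Th2 at 12 h, at 3.64. These ratios are of mRNA levels and were not tested beyond the changes of the genes themselves.

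Among skewing conditions the Th2 cultures differed from Th0 in 4 of the 8 genes at any size, where 29.6% of all genes passed, and in none with 2-fold, where 2.01% did. In the fit over 18 cultures with time and condition as factors, Srm was higher in Th2 by 0.76 on the log2 scale (SE 0.21, limma adjusted p = 0.0164), Amd1 by 0.39 (SE 0.085, adjusted p = 0.00333) and Azin1 by 0.24 (SE 0.066, adjusted p = 0.0132). Oaz2 was lower by 0.26 (difference −0.26, SE 0.085, adjusted p = 0.0306). Odc1 was higher by 0.27, which did not pass (adjusted p = 0.0628), although it passed without the 24 h cultures (0.36, adjusted p = 0.0233). Srm, Amd1 and Azin1 were thus higher and Oaz2 lower in Th2 than in Th0. Oaz1 (−0.0011, adjusted p = 0.993), Sms (0.16, adjusted p = 0.105) and Sat1 (−0.20, adjusted p = 0.153) did not pass. Against Th1 none of the 4 passed in the same fit: Srm 0.45 (limma adjusted p = 0.202), Amd1 0.18 (adjusted p = 0.190), Azin1 0.014 (adjusted p = 0.916) and Oaz2 −0.25 (adjusted p = 0.0722). In Th2 against Th0, 6 members had an unadjusted limma p under 0.05, as had 4423 of all 10737 genes tested.

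The difference of Srm lay at the early times. Th2 was 3.35 times Th0 at 4 h, with 88.7 against 26.5 RPKM, and 3.58 times at 8 h, with 243 against 67.9. It was 1.40 times at 12 h, 1.21 at 16 h, 1.08 at 20 h and 1.07 at 24 h. Srm was thus ahead in Th2 cultures, and the Th0 cultures reached a like level by 20 h. Without the 4 h cultures the fitted difference was 0.56 (adjusted p = 0.0627), without the 8 h cultures 0.54 (adjusted p = 0.0597), and from 12 to 24 h alone 0.24 (adjusted p = 0.118). A fit in which the condition difference could change by the hour, chosen after the values were seen, gave a decline of the Th2 lead over Th0 of −0.096 log2 units per hour (SE 0.020, limma adjusted p = 0.0155). Srm was the single member past the test there, against 3.93% of all genes with at least a 2-fold change over 20 h and 5.15% at any size. The call was lost without the 20 h cultures (−0.094, adjusted p = 0.0791) and without the 24 h cultures (−0.12, adjusted p = 0.0503). Myc, a transcription factor for which Srm and Odc1 are known targets, was at 157 RPKM in Th2, 73.1 in Th1 and 52.2 in Th0 at 4 h, and at 206, 294 and 272 RPKM at 24 h. The summed level of 5 activation genes was also higher in Th2, at 671 against 362 RPKM in Th0 at 4 h and 1115 against 542 at 8 h. That of the 9 red cell genes was higher in Th2 at 4 h, at 47168 against 34293 RPKM, and lower at 8 h, at 14999.9 against 28502. The part of Myc, of the state of activation or of other cells in the course of Srm was not tested, and without the haemoglobin genes the Srm difference was 0.72 over all times.

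The lead of Amd1 in Th2 was smaller and was seen at both ends of the time course. Th2 had the highest Amd1 of the 3 conditions at 5 of 6 time points and Th0 the lowest at 5 of 6. The call for Th2 against Th0 was kept in all 17 alternative fits, with differences from 0.33 to 0.44. The related gene copy Amd2, whose reads can hardly be separated from those of Amd1, had a Th2 difference of 0.43 (SE 0.075, limma adjusted p = 0.000712). Azin1 was lowest in Th0 at all 6 time points. Oaz2 was lowest in Th2 at all 6, by little at 4 h (28.5 RPKM against 29.4 in Th0). How many of all genes keep orders like these or that of Amd1 was not counted. Oaz2 at 8 h was 27.8 RPKM in Th0, 22.3 in Th1 and 16.5 in Th2. Its call was lost in 9 of 17 alternative fits, among them those without the 8 h (−0.17, adjusted p = 0.119), 12 h (adjusted p = 0.0704), 16 h (adjusted p = 0.0635) or 20 h cultures (adjusted p = 0.0657). Azin1 lost its call when only Th0 and Th2 were fitted (adjusted p = 0.0641) or only 12 to 24 h (0.19, adjusted p = 0.0872).

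Odc1 whole reads gave narrow counting intervals at each time. Odc1 in Th2 was 1.36 times Th0 at 4 h (95% interval 1.33 to 1.39), 1.81 times at 8 h (1.77 to 1.86), 1.14 at 12 h (1.11 to 1.16), 1.10 at 16 h (1.08 to 1.13), 1.11 at 20 h (1.09 to 1.13) and 0.905 at 24 h (0.885 to 0.925). Th1 was 1.43 times Th0 at 4 h, 1.84 times at 8 h (1.80 to 1.89) and 1.08 at 24 h (1.05 to 1.10). Both skewed cultures thus held more Odc1 than Th0 at 4 and 8 h, in 1 library each, and at 24 h Th2 was the lowest. The Th0 culture at 8 h, at 162 RPKM, was low beside its neighbours at 4 and 12 h.

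Th1 cultures did not differ from Th0 in any member by the test, with 2-fold or at any size, where 0.494% and 2.27% of all genes passed. At an unadjusted p under 0.05 there were 4 members, Odc1 (difference 0.34, SE 0.11, limma adjusted p = 0.123), Azin1 (0.23, adjusted p = 0.0962), Sms (0.22, adjusted p = 0.151) and Amd1 (0.21, adjusted p = 0.234). Of all 10737 genes tested for Th1 against Th0, 1757 had such a p. Between Th2 and Th1, 1 member passed at any size (12.2% of all genes) and none with 2-fold (1.96%). That member was Sat1, which was lower in Th2 (−0.33, SE 0.10, adjusted p = 0.0492). Sat1 in Th2 was the lowest of the 3 conditions from 8 to 20 h, with 115 RPKM at 8 h against 171 in Th1 and 163 in Th0, and not at 4 or 24 h. The call was kept in 7 of 17 alternative fits and lost, for example, without the 8 h (adjusted p = 0.114), 12 h (0.18), 16 h (0.194) or 20 h cultures (0.145). No member passed in the change per hour of Th2 against Th1, at either size, where 0.95% of all genes passed with 2-fold and 1.09% at any size. There 2 members, Srm (−0.066, adjusted p = 0.119) and Oaz1 (−0.026, adjusted p = 0.144), had an unadjusted p under 0.05, as had 1957 of all 10737 genes.

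**Figure D3:**
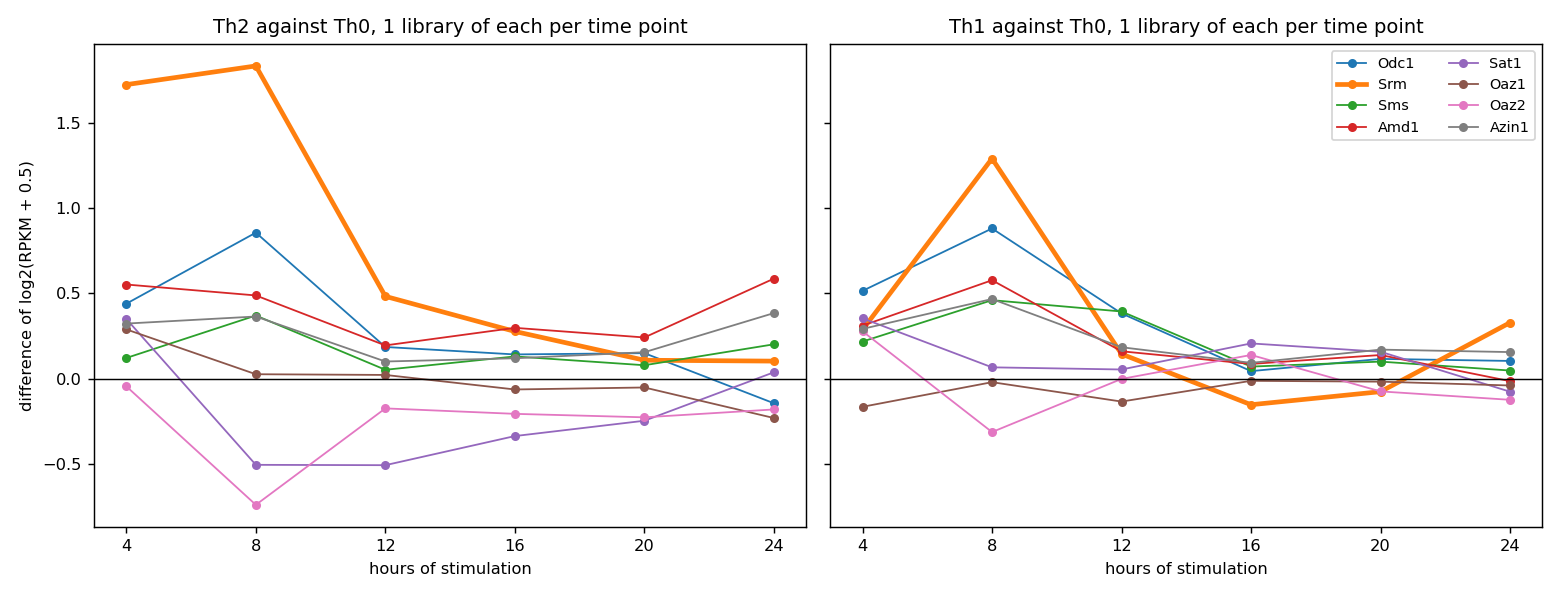
Difference of log2(RPKM + 0.5) between Th2 and Th0 cultures (left) and between Th1 and Th0 cultures (right) for each member at each time point, 1 library of each condition per point, without error bars. The Srm line in the left panel starts above 1.5 at 4 and 8 h and is near 0 at 20 and 24 h, where Th2 was 1.08 and 1.07 times Th0, while Oaz2 is below 0 throughout.

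After actinomycin D the member that fell was Amd1. Its level was 56.4 RPKM at 0 h, 41.9 at 1 h, 43.4 at 2 h and 21.1 at 4 h, so that the decline lay in the first hour and between 2 and 4 h. The 4 h library held 0.374 of the 0 h level (95% interval 0.351 to 0.399, counting error only). The fitted slope was −0.33 log2 units per hour (SE 0.058, limma adjusted p = 1.75e-06), and 2.20% of 10571 genes had a lower slope. Amd1 was 1 of 8 members to pass, against 9.55% of all genes with at least 2-fold over 4 h and 20.9% at any size. With 1 library per time the fit has 2 residual degrees of freedom, and the spread was taken almost wholly from genes of like level (189 prior degrees of freedom), so the p depends on that shared spread. Without the 4 h library the slope was −0.19 (adjusted p = 0.402).

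RPKM is a share of the mRNA that remains, so a gene that decays more slowly than most has a higher RPKM after transcription stops. Odc1 was at 312, 320.4, 353 and 382 RPKM at 0, 1, 2 and 4 h, 1.22 times its 0 h level at the end (1.20 to 1.25), with a slope of 0.077 (SE 0.059, limma adjusted p = 0.381). The antizymes also stood higher at 4 h. Oaz1 was at 538, 642, 632 and 821 RPKM (slope 0.14, adjusted p = 0.106) and Oaz2 at 15.8, 16.5, 18.4 and 24.0 RPKM (slope 0.15, adjusted p = 0.0672), and neither slope passed, although each did without the 2 h library (adjusted p = 0.0394 and 0.0109). Srm was at 209.9, 211, 194 and 173 RPKM (slope −0.076, adjusted p = 0.360). Sms, Sat1 and Azin1 had slopes between −0.020 and 0.028, none past the test, and that of Sat1 was 0.20 without the 4 h library. The Odc1 level of 312 RPKM in the 0 h library was above the 238 to 263 RPKM of the 3 cultures at 16 h, and so were Sms (88.8 against 76.6 to 83.9), Sat1 (139.6 against 94.4 to 138) and Azin1 (68.6 against 54.9 to 59.7). Srm, Amd1, Oaz1 and Oaz2 were within the range of those cultures.

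**Figure D4:**
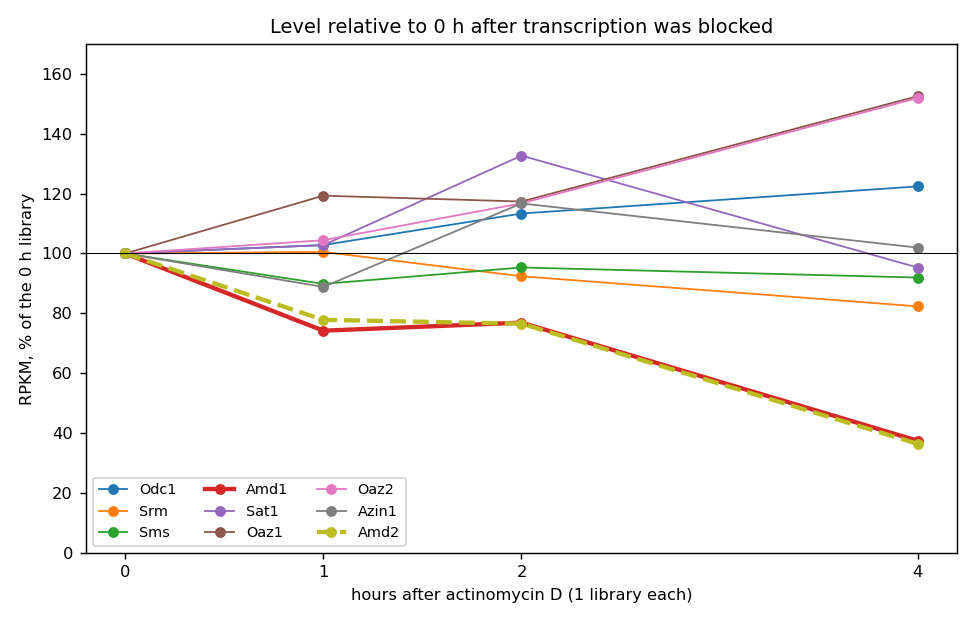
RPKM as a percentage of the 0 h library (vertical axis, linear from 0) against hours after actinomycin D for the 8 members and for Amd2 (dashed), 1 library per point and no error bars. Amd1 and Amd2 go down together to below 40% of their 0 h level at 4 h, while Oaz1 and Oaz2 lie together above 150%.

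The readings of some members share sequence with other genes. Of all 50-base windows in the annotated transcripts of Amd1, 78.1% also occur in another gene, nearly all in Amd2 (76.7%), a gene at chr10:35708675-35711892 on the minus strand. Amd2 shares 85.7% of its windows with Amd1. The ratio of Amd1 to Amd2 in RPKM stayed between 1.53 and 1.80 in all 24 libraries, so the values of Amd1 are uncertain as those of 1 gene and are better read as those of the pair. The shared part was 24.3% for Odc1, 21.0% for Oaz1, 17.5% for Sms, 7.42% for Oaz2, 2.72% for Sat1, 2.01% for Srm and 0 for Azin1. For Oaz1 and Sms this was mainly with Oaz1-ps and Sms-ps, and their values and those of Odc1 are uncertain to that extent.

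The genes listed around the members were more often higher than lower at 24 h. Of 32 listed genes that are not members, 24 were expressed above the filter. Among those 24 are Amd2, whose reads can hardly be separated from those of Amd1, the transcription factor Myc, and Max. Amd2 (log2 1.70) and Myc (2.58) are counted below as higher with 2-fold at 24 h. At 24 h against resting 7 were higher and 2 lower with 2-fold, and 16 were higher and 3 lower at any size, with a median log2 change of 0.73, where 30.1% of all genes passed with 2-fold (1389 higher and 1891 lower) and 65.2% at any size (3447 higher and 3658 lower). At 4 h none passed with 2-fold, and 3 were higher and 3 lower at any size, where 10.6% and 31.7% of all genes passed. In arginine and ornithine supply 1 of 3 tested genes passed with 2-fold, Slc7a1, the transporter for arginine and ornithine, from 17.1 RPKM at rest to 41.9 at 24 h (log2 1.26, limma adjusted p = 0.00218).

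Around S-adenosylmethionine 3 of 8 genes rose past 2-fold, against 30.1% of all genes past 2-fold in either direction. Mat2a, which makes S-adenosylmethionine, went from 76.1 to 179 RPKM (1.23, adjusted p = 1.63e-05), and Ahcy, which clears S-adenosylhomocysteine, from 24.3 to 104 (2.07, adjusted p = 8.79e-09). Mtap, which recycles the by-product of spermidine and spermine synthesis, went from 16.9 to 53.9 RPKM (1.64, adjusted p = 3.62e-05). Mat2a had already risen at 4 h, to 134 RPKM (0.78, adjusted p = 0.00271). Among genes that use spermidine, Eif5a, the factor that carries the hypusine residue made from it, rose from 343 to 1591 RPKM (2.21, adjusted p = 4.51e-06), and its modifying enzymes Dhps (0.97, adjusted p = 7.10e-05) and Dohh (0.95, adjusted p = 0.000463) rose just short of 2-fold.

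In the oxidation list 1 of 2 genes fell, and in the transport list 2 of 4 tested fell and 1 rose at any size, with 1 of each list lower past 2-fold. Of all genes 65.2% passed at any size and 30.1% with 2-fold at 24 h. Smox, spermine oxidase, fell from 40.4 and 42.1 RPKM at rest to 7.82, 6.32 and 5.47 RPKM in the Th0, Th1 and Th2 cultures at 24 h (log2 −2.58, SE 0.15, adjusted p = 4.15e-10). Atp13a2, which exports polyamines from lysosomes, fell from 27.5 to 9.79 RPKM (−1.45, adjusted p = 5.30e-06). Atp13a3, another transporter of the same family, rose from 35.2 to 49.3 RPKM (0.47, adjusted p = 0.00322), and Slc12a8 fell from 3.35 to 1.55 RPKM (−0.92, adjusted p = 0.00159). Slc3a2 was at 54.2 RPKM at rest and 58.8 at 24 h (0.11, limma adjusted p = 0.669), after higher levels between. It was at 103 RPKM at 8 h (0.86, adjusted p = 0.00315), 95.4 at 12 h (0.81, adjusted p = 0.00366) and 81.9 at 16 h (0.59, adjusted p = 0.0250). Paox, the oxidase of acetylated polyamines, was at 8.95 RPKM at rest and 8.26 at 24 h (−0.11, adjusted p = 0.592), after a lower level of 5.23 at 4 h (−0.73, adjusted p = 0.00485). Myc rose from 42.1 to 257 RPKM (2.58, SE 0.41, adjusted p = 4.29e-05). After actinomycin D the listed genes that are not members past the test with 2-fold were Amd2 (33.9 to 12.3 RPKM, slope −0.35, adjusted p = 2.68e-06) and Myc (194 to 60.5 RPKM, slope −0.42, adjusted p = 4.64e-09). These were 2 of 24 tested, where 9.55% of all genes passed.

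The genes whose course over the 20 time-course libraries was most like that of Srm among 10897 were Nop2 (Pearson r 0.994, Spearman rho 0.913), Slc29a2 (0.993 and 0.926) and Nolc1 (0.993 and 0.932). For Odc1 they were Appbp2 (0.920 and 0.759), Txnrd1 (0.906 and 0.687) and Kdm2b (0.902 and 0.564). For Sat1 they were Lysmd3 (0.878 and 0.929), Pkn2 (0.875 and 0.880) and Atp6v1e1 (0.867 and 0.884). These likenesses are descriptions over libraries that share the resting samples and the time course. The nearest genes to Srm were closer to it than the nearest to Odc1 or Sat1 were to those.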

How the data were processed

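The deposited table holds RPKM per gene, computed by the authors from sequence reads; the submitters' processing notes name BWA and GRCm38, and further settings are not given in the sources used here. The table has 22010 entries, of which 1 carries no name and sums to 0 and was left out. Values were analysed as log2(RPKM + 0.5) with limma 3.58.1 (R 4.3.3, intensity trend) over genes whose mean reached 1 RPKM in the libraries fitted, with Benjamini-Hochberg adjustment over all of them. A gene was called at adjusted p under 0.05 with at least a 2-fold change (for changes per hour, over 20 h or 4 h), and calls at any size were counted too. Time comparisons used 20 libraries with time as a factor, conditions 18 cultures with time and condition, and actinomycin D 4 libraries with a linear slope. Alternatives changed the pseudocount, filter, scaling, trend, libraries and covariates. Depth was recovered from RPKM steps, and reads came out whole for Odc1, Amd1 and Amd2 only, so no count test was run. The fits were tested on simulated data. Genes named were the members, up to 3 genes per pathway list with the largest called change at 24 h, and the 3 most like Odc1, Srm and Sat1 in course (Pearson correlation). Dhps, Dohh, Paox, Atp13a3, Slc12a8 and Slc3a2 were named after their values were seen. Members and lists were chosen with earlier results of these data known. The change per hour of Th2 against Th0 was added after seeing the data.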

Additional observations from a re-analysis of the deposited data

Results flagged for a closer look

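Srm was the member whose difference between Th2 and Th0 cultures depended on time: the Th2 lead changed by −0.096 log2 units per hour (SE 0.020, limma adjusted p = 0.0155), from 3.35 times at 4 h to 1.07 times at 24 h. It is listed because the test of the interaction between condition and hours passed, in a fit chosen after the data were seen. No group had the 4 libraries or more that a check for a single library standing apart needs.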

How the results depend on the processing

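The number of members called with 2-fold, and each member's change, were recomputed under other settings, 1419 values in all. Under median-of-ratios scaling 1 member was called at 4 h (Odc1), and under quantile normalization 1 at 16 h. The change per hour of Th2 against Th0 had 0 calls with no filter. Leaving out a condition or a resting library gave 0 to 1 calls at 4 h, 1 to 2 at 8 h, 2 to 4 at 12 h, 2 to 3 at 16 h and 3 to 4 at 24 h against 4 h. Leaving out a time gave 0 to 1 calls for the change per hour of Th2 against Th1, 0 to 2 for that of Th2 against Th0 and 0 to 1 after actinomycin D. Directions turned only in changes that did not pass. These were Oaz1 at 24 h against resting (0.104 by median of ratios, 0.0244 by upper quartile, −0.0842 to 0.0310 leaving libraries out), Odc1 at 24 h against 4 h (0.0218 by median of ratios, −0.209 to 0.0825 leaving out), and Oaz1 in Th2 against Th0 (0.0427 and 0.0250 by these scalings, −0.0592 to 0.0448 leaving out). Against Th1, the Th2 values that turned were those of Oaz1 (−0.0298 from 12 to 24 h, −0.0146 to 0.114 leaving out), Azin1 (−0.000788 by quantiles, −0.00776 without haemoglobin genes, −0.0286 to 0.0376 leaving out) and Sms (−0.0979 to 0.00120 leaving out). Oaz2 turned in Th1 against Th0 (0.00415 by median of ratios, −0.0744 to 0.0437 leaving out). The slopes after actinomycin D that turned were those of Sat1 (0.00372 by upper quartile, 0.00709 by quantiles, −0.0651 to 0.203 leaving out) and Sms (−0.0343 to 0.00590 leaving out). The cause was not tested. No analysis paired by replicate number was possible because the groups compared share fewer than 2 replicate numbers in the labels. The condition comparisons matched the cultures by time point, with time as a factor. With condition as a covariate, the comparisons of 4 h and 24 h with resting and with each other gained 4 calls at any size (Sms and Oaz2 at 4 h, Azin1 at 24 h with adjusted p = 0.0171, Sat1 at 24 h against 4 h with adjusted p = 0.0313), and no call of a time comparison was lost. The single library per culture limits precision.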
